A study of Mus musculus with 12 samples.

Results

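The genes that carry the insulin signal from the cell surface to glucose uptake were followed in hind limb skeletal muscle. They are 10 genes chosen by name, Insr, Irs1, Irs2, Pik3r1, Pik3ca, Akt2, Tbc1d1, Tbc1d4, Slc2a4 and Hk2, out of 22923 gene symbols in the expression files. Each was found once, and all 10 passed the filter on low values. The samples were male mice of the FVB strain at 22 weeks of age, either WT or KO for the genes of the small heat shock proteins αB-crystallin (Cryab) and HspB2 (Hspb2). The KO was global and removed both genes, so the 2 genes cannot be told apart. The WT mice were littermates whose sample titles read "Flox", although no source used here describes a floxed allele or a Cre in them. Each genotype was kept on normal chow or on a high fat diet begun at 6 weeks of age, which gave 4 groups of 3 mice. RNA from the proximal hind limb was sequenced, and its values were read as FPKM, a unit inferred because no header names it. FPKM are fragments per kilobase of transcript scaled to the size of the library, so levels were set side by side between genes.

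Insulin binds its receptor, a tyrosine kinase that phosphorylates the adaptor proteins IRS1 and IRS2. These recruit phosphoinositide 3-kinase, made of a regulatory and a catalytic subunit, whose lipid product brings AKT to the membrane. AKT2 then phosphorylates TBC1D1 and TBC1D4, which otherwise hold vesicles with the glucose transporter GLUT4 inside the fibre, and hexokinase 2 traps the glucose that enters. Skeletal muscle takes up much of the glucose that insulin clears from blood.

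The libraries differed in more than group. Cryab lay between 412 and 837 FPKM in the 6 WT libraries and between 0.845 and 1.75 FPKM in the 6 KO libraries, and Hspb2 followed it, as the titles say. A separate genotype label conflicts with the title in 6 of the 12 libraries, and the titles were used. The summed level of 3 B and T lymphocyte markers (Cd3e, Cd79a and Ms4a1) was 30.2 FPKM in WT chow replicate 2, 33.4 in KO chow replicate 1 and 34.6 in KO chow replicate 3, and at most 2.67 in the other libraries. WT high fat replicate 1 had the lowest summed adipocyte markers, 5.90 FPKM, and the lowest summed slow fibre markers, 73.9 FPKM. Skeletal muscle markers were high in every group, although Acta1 was listed at 0 in 2 libraries and the fast myosin Myh4 at 0 in all 12.

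Ordered by mean over the 12 libraries, the level was 253 FPKM for Slc2a4, 94.3 for Akt2, 68.2 for Hk2, 13.8 for Tbc1d1, 10.4 for Pik3r1, 8.65 for Irs1, 8.43 for Tbc1d4, 8.37 for Insr, 6.72 for Pik3ca and 2.67 for Irs2. The ranges of Slc2a4 (187 to 317 FPKM), Akt2 (85.7 to 102 FPKM) and Hk2 (45.6 to 75.9 FPKM) did not overlap. From Tbc1d1 down to Irs2, each gene's range overlapped that of its neighbours in the order. Akt2 was the steadiest of the 10, with 1.19-fold between its highest and lowest library. Irs2 varied most, 10.4-fold, and its spread within groups on the log2 scale lay at percentile 97.2 of all tested genes.

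**Figure D1:**
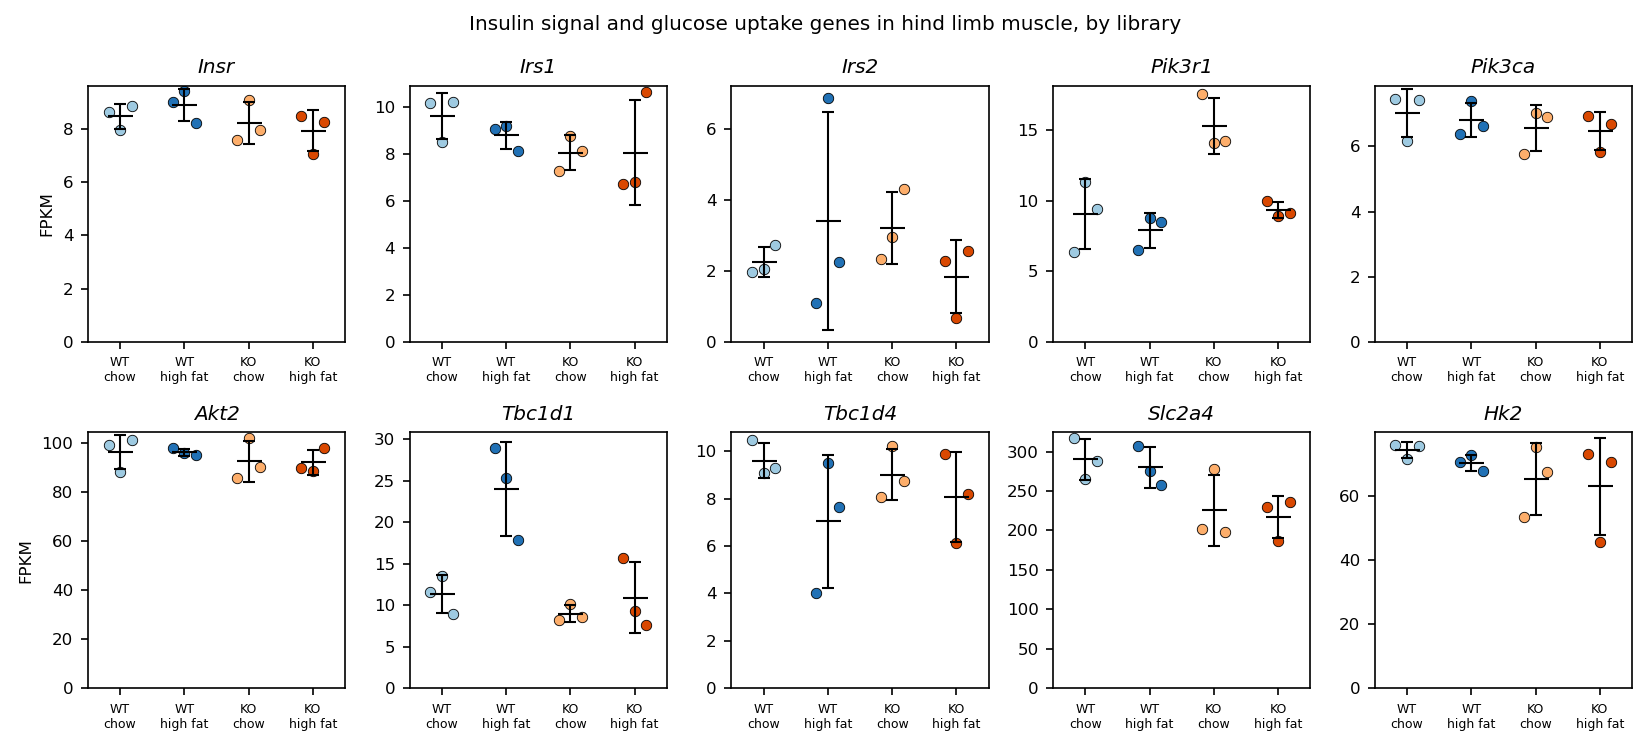
FPKM (vertical axes, from 0) of each gene in each library of the 4 groups, with the group mean as a bar and its SD as whiskers. Tbc1d1 stands highest in the 3 WT libraries on high fat (17.8 to 28.9 FPKM), Pik3r1 in the 3 KO libraries on chow (14.1 to 17.6 FPKM), and Akt2 stays between 85.7 and 102 FPKM throughout.

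No gene of the 10 passed an adjusted p of 0.05 in any of 7 comparisons with limma, where between 0% and 0.862% of all genes tested did. The lowest p-values of the 10 were those of Tbc1d1, Pik3r1 and Slc2a4. Upstream windows of the first 2 are shown because their levels differed most between groups. Reference entries for the start of transcription were present for 8 of the 10 genes, taken from RefSeq on GRCm38.p6. The files hold 1 value per library for each of the 10 genes, so the starts of Pik3r1 and Tbc1d1 are not told apart in these data. Each window is the 250 bases before a start, 5′ to 3′ on the gene's strand, with capitals for the motifs CANNTG (an E-box, bound by basic helix-loop-helix factors) and GGGCGG (an SP1 box) on either strand.
Pik3r1, first start, chr13:101768218-101768467, minus strand: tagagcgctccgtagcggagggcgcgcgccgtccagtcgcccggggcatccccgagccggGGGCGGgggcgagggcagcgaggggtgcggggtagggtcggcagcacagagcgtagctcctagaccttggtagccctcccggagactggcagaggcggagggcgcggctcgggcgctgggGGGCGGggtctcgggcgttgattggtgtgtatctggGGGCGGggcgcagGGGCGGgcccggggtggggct
Pik3r1, second start, chr13:101692631-101692880, minus strand: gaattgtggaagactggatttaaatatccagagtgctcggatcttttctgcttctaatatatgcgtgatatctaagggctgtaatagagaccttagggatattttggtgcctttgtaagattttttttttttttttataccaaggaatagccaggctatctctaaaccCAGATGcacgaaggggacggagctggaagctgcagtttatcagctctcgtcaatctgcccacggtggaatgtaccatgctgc
Tbc1d1, second start, chr5:64230107-64230356, plus strand: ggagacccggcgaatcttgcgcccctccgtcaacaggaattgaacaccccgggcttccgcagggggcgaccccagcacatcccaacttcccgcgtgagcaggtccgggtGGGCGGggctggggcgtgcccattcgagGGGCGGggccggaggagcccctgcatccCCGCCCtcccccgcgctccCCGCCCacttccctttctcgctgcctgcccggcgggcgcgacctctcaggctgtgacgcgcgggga
The first Pik3r1 window holds 4 SP1 boxes and the Tbc1d1 window 4, while the second Pik3r1 window holds 1 E-box. None of the 3 windows holds the forkhead motif TGTTTAC on either strand. Of all 32851 RefSeq windows of the same length, 66.2% hold at least 1 E-box, 32.7% at least 1 SP1 box and 3.17% the forkhead motif. So 1 E-box or 1 SP1 box is common, and SP1 boxes average 0.656 per window. The windows with 4 SP1 boxes are 76.4% (Pik3r1) and 73.6% (Tbc1d1) G and C, against a median of 52.4% over all windows. No marked stretches overlap. The TATA box TATAAA was also searched, and 12.4% of all windows hold it. The second Pik3r1 window holds 1 TATAAA on the opposite strand, left in lower case. The window of the other Tbc1d1 start touches an exon of the same gene and is not shown. The bases that follow that start occur in 5 annotated transcripts of the gene, and those that follow the start shown in 0. The window left out holds 1 E-box and 0 SP1 boxes.

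In the GENCODE M21 annotation of GRCm38, Pik3r1 occupies chromosome 13 between 101680563 and 101768217 (minus strand), with 4 starts among its protein-coding transcripts. Tbc1d1 spans 195182 bases of chromosome 5, between 64156305 and 64351486 (plus strand), with 5 coding starts. Slc2a4 is compact, 5650 bases of chromosome 11 between 69942539 and 69948188 (minus strand). Exons of Irs1 share 2822 bases with those of an opposite-strand gene, Gm9747, and exons of Irs2 share 162 bases with 9530052E02Rik. Whether the counting used strand is not stated, so the values of Irs1 and Irs2 may hold reads of those neighbours.

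The receptor and its adaptors came first in the signal. Insr, the insulin receptor, was 8.62, 7.95 and 8.84 FPKM in WT on chow and 9.03, 9.41 and 8.22 in WT on high fat. In KO mice it was 7.59, 9.09 and 7.97 FPKM on chow and 8.47, 7.04 and 8.27 on high fat. All 4 groups overlapped. With limma on log2(FPKM + 1), the diet difference was 0.06 (95% interval -0.14 to 0.26, adjusted p = 0.90) in WT and -0.05 (-0.25 to 0.15, adjusted p = 0.83) in KO mice, differences being high fat minus chow. Those intervals are among the narrowest of the 10 genes.

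Irs1, the main insulin receptor adaptor of muscle, was 10.2, 8.52 and 10.2 FPKM in WT on chow and 7.29, 8.77 and 8.15 in KO on chow. On high fat it was 9.09, 9.20 and 8.13 FPKM in WT and 6.74, 6.80 and 10.7 in KO mice. The genotypes overlapped on both diets, and KO minus WT was -0.23 (SE 0.15, limma adjusted p = 0.40) on chow and -0.14 (SE 0.15, limma adjusted p = 0.71) on high fat. Irs2, the second adaptor, ran from 1.96 to 2.72 FPKM in WT on chow, 1.10 to 6.87 in WT on high fat, 2.33 to 4.31 in KO on chow and 0.662 to 2.56 in KO on high fat. Its highest and lowest libraries were both on high fat. Leaving out WT high fat replicate 2, the library at 6.87 FPKM, turned the sign of its diet difference in WT from 0.22 to -0.31.

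Pik3r1 encodes p85α, the regulatory subunit that holds phosphoinositide 3-kinase to the adaptors. It was 17.6, 14.1 and 14.2 FPKM in KO mice on chow and 9.97, 8.93 and 9.16 in KO on high fat. In WT mice it was 6.40, 11.3 and 9.42 FPKM on chow and 6.50, 8.77 and 8.49 on high fat. The 3 KO chow libraries stood above all 9 others, and the WT diet groups overlapped. KO minus WT on chow was 0.72 on the log2 scale (SE 0.17, unadjusted p = 0.0015, limma adjusted p = 0.26). High fat minus chow in KO mice was -0.65 (SE 0.17, unadjusted p = 0.0030, limma adjusted p = 0.36) against -0.15 (SE 0.17, limma adjusted p = 0.88) in WT mice, and the difference between those diet responses was -0.50 (SE 0.24, limma adjusted p = 0.83). KO chow was also the group with the highest summed adipocyte markers (Adipoq, Plin1, Lep, Cfd and Cidec), 815 to 1729 FPKM against 112 to 729 in WT on chow and 348 to 506 in KO on high fat. It held 2 of the 3 lymphocyte-rich libraries, and without those 3 libraries, when KO chow is a single library, the KO minus WT value of Pik3r1 on chow was 0.78 (limma adjusted p = 0.997). Between the KO diets the adipocyte sum followed Cfd, at 577 to 1329 FPKM on chow and 59.9 to 112 on high fat. Lep went the other way, at 11.8 to 42.6 FPKM on chow and 63.3 to 93.4 on high fat, and Adipoq, Plin1 and Cidec overlapped. The part of fat or lymphoid tissue in the Pik3r1 level was not tested, and in bulk muscle fewer cells of a type and less RNA per cell cannot be told apart.

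Pik3ca encodes p110α, the catalytic partner of p85α. It ran from 5.76 to 7.47 FPKM over the 12 libraries, the groups overlapped in every comparison, and its 4 simple differences lay between -0.08 and -0.02 with SE 0.10. Pik3r1 divided by Pik3ca in the same library was 3.05, 2.01 and 2.06 in KO on chow, 1.44, 1.53 and 1.37 in KO on high fat, 0.857, 1.84 and 1.27 in WT on chow and 1.02, 1.18 and 1.28 in WT on high fat. Over both diets the ratio was 1.52-fold higher in KO mice, by geometric means of 1.83 and 1.21. A 2-sided exact permutation test within diets gave p = 0.005, the smallest that its 400 arrangements allow, and 0.06 after Benjamini-Hochberg adjustment over 12 tests of 6 ratios. On each diet alone the 3 KO ratios stood above the 3 WT ratios, where the smallest exact p for 3 against 3 is 0.1. By diet the same ratio gave exact permutation p = 0.085 within genotypes (adjusted p = 0.17). The ratios Hk2 to Hk1, Irs1 to Irs2 and Akt2 to Akt1 had adjusted exact permutation p from 0.17 to 0.855 by diet and genotype. Slc2a4 to Slc2a1 by diet had 0.63.

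Akt2, the AKT isoform tied most closely to glucose uptake, was 99.3, 88.2 and 101 FPKM in WT on chow and 97.8, 95.8 and 94.96 in WT on high fat. In KO mice it was 85.7, 102 and 90.2 FPKM on chow and 89.7, 88.4 and 98.0 on high fat. The groups overlapped in every simple comparison. High fat minus chow was 0.00 in WT (95% interval -0.20 to 0.20, limma adjusted p = 0.999) and -0.01 in KO mice (-0.21 to 0.19, limma adjusted p = 0.98). Its ratio to Akt1, the widely expressed isoform, averaged 3.87 ± 0.42 (SD, n = 3) in WT on chow, 3.87 ± 0.31 in WT on high fat, 3.47 ± 0.67 in KO on chow and 3.81 ± 0.64 in KO on high fat.

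Tbc1d1 encodes a Rab GTPase-activating protein that AKT and AMPK phosphorylate, and that is more abundant in fast fibres. It was 28.9, 25.3 and 17.8 FPKM in WT on high fat against 11.6, 13.5 and 8.96 in WT on chow. In KO mice it was 15.7, 9.37 and 7.60 FPKM on high fat and 8.20, 10.2 and 8.56 on chow. Every WT high fat library stood above every library of the other 3 groups, while the KO diet groups overlapped. High fat minus chow in WT was 1.01 on the log2 scale (SE 0.24, 95% interval 0.47 to 1.54, unadjusted p = 0.0016, limma adjusted p = 0.15). In KO mice it was 0.20 (-0.33 to 0.74, limma adjusted p = 0.72). The difference between these diet responses was -0.81 (SE 0.34, unadjusted p = 0.039, limma adjusted p = 0.77), so the responses were not shown to differ. KO minus WT on high fat was -1.10 (SE 0.24, unadjusted p = 0.00084, limma adjusted p = 0.083), and on chow it was -0.30 (SE 0.24, limma adjusted p = 0.49). Leaving out 1 library at a time moved the WT diet value between 0.86 and 1.20 and the KO minus WT value on high fat between -1.38 and -0.90, with limma adjusted p from 0.13 to 0.43 and from 0.051 to 0.28.

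Tbc1d4, also called AS160, is the second Rab GTPase-activating protein of the pathway. It was 3.998, 9.50 and 7.64 FPKM in WT on high fat against 10.5, 9.08 and 9.27 in WT on chow, and 8.07 to 10.2 in KO on chow against 6.11 to 9.87 in KO on high fat. All groups overlapped. Its lowest library, WT high fat replicate 1 at 3.998 FPKM, held the highest Tbc1d1 level and the lowest slow fibre markers. The slow fibre sum of the other 2 WT high fat libraries, 1476 and 1140 FPKM, was the highest of all 12, and their Tbc1d1 levels of 25.3 and 17.8 FPKM were next below that of replicate 1. Of the fast fibre markers, the myosin Myh1 was 1393, 752 and 828 FPKM in WT on high fat and at most 677 in the other 9 libraries, as Tbc1d1 was highest in the same 3. Myh1 differed by 0.73 by diet in WT (SE 0.25, unadjusted p = 0.013, limma adjusted p = 0.38) and by -0.95 by genotype on high fat (SE 0.25, unadjusted p = 0.0027, limma adjusted p = 0.11). Myoglobin (Mb), the oxygen store of muscle, also stood apart at 3562 to 6173 FPKM in WT on high fat against at most 3186 elsewhere. The sum of all 4 fast fibre markers (Myh4, Myh1, Tnni2 and Tnnc2) overlapped, at 25925 to 33658 FPKM in WT on high fat, 23823 to 33218 in WT on chow, 25117 to 29519 in KO on high fat and 17715 to 26569 in KO on chow. Myh4 added nothing to that sum, in which Tnni2 was at least 6810 and Tnnc2 at least 10315 FPKM, against at most 1393 for Myh1. The sum therefore mostly followed these troponins and says little of Myh1. The part of fibre composition in the Tbc1d1 and Tbc1d4 levels was not tested.

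Tbc1d1 divided by Tbc1d4 was 7.23, 2.66 and 2.33 in WT on high fat, 1.11, 1.49 and 0.966 in WT on chow, 1.02, 0.996 and 0.977 in KO on chow and 1.59, 1.53 and 0.928 in KO on high fat. The 3 WT high fat ratios stood above the other 9. Over both genotypes the geometric mean was 2.16 on high fat and 1.08 on chow, a 2.0-fold difference (2-sided exact permutation p = 0.02 within genotypes, adjusted p = 0.06 over 12 tests). KO mice had 0.562 times the WT ratio over both diets (exact permutation p = 0.02 within diets, adjusted p = 0.06). Taken singly, the KO to WT fold was 0.37 on high fat and 0.853 on chow, where the genotypes overlapped. The high fat to chow fold was 3.04 in WT and 1.32 in KO mice, where the diets overlapped. Without WT high fat replicate 1 the log2 difference by diet was 0.75 in place of 1.00, and that by genotype -0.58 in place of -0.83, with an adjusted exact permutation p of 0.1 for both.

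**Figure D2:**
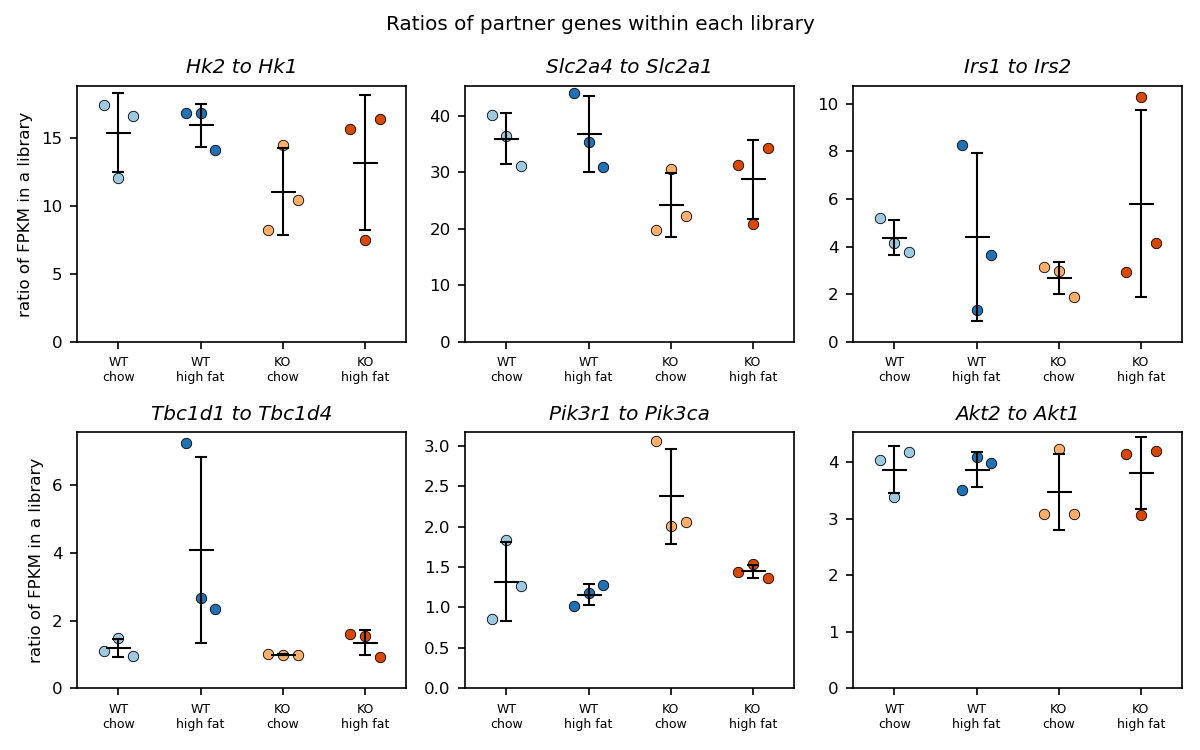
Ratio of the FPKM of 2 partner genes in the same library (vertical axes, from 0) in the 4 groups, with the group mean and SD. The Tbc1d1 to Tbc1d4 ratio is highest in WT on high fat (2.33 to 7.23), and the Pik3r1 to Pik3ca ratio in KO on chow (2.01 to 3.05).

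Slc2a4 encodes GLUT4, the insulin-responsive glucose transporter. It was 202, 277 and 198 FPKM in KO on chow and 230, 187 and 236 in KO on high fat. In WT mice it was 317, 266 and 288 FPKM on chow and 307, 275 and 257 on high fat. On high fat all KO libraries lay below all WT libraries, and on chow KO replicate 2 lay within the WT range. KO minus WT was -0.38 on chow (SE 0.15, unadjusted p = 0.027, limma adjusted p = 0.28) and -0.37 on high fat (SE 0.15, unadjusted p = 0.031, limma adjusted p = 0.25). High fat minus chow was -0.05 in WT (95% interval -0.38 to 0.27, limma adjusted p = 0.95) and -0.04 in KO mice (-0.37 to 0.28, limma adjusted p = 0.91).

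The lower Slc2a4 values of KO chow stood beside lower muscle markers. Ckm, the muscle creatine kinase, was lower in KO on chow by a log2 difference of -0.41 (unadjusted p = 0.049, limma adjusted p = 0.30), and Pygm and Tnnc2 by -0.47 and -0.43 (limma adjusted p = 0.29 for both). The 2 KO chow libraries with the lowest Slc2a4, replicates 1 and 3, were also the lymphocyte-rich ones, with the lowest muscle marker sums without Acta1, 30321 and 27579 FPKM. Without the lymphocyte-rich libraries, when KO chow is a single library, KO minus WT on chow was -0.12. No high fat library was left out there, so that setting could not move the high fat difference of -0.37 and does not test it. The muscle marker sum on high fat was 36513 to 42820 FPKM in KO and 38135 to 47626 in WT libraries. The part of the muscle fraction in the Slc2a4 level was not tested.

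Slc2a4 divided by Slc2a1, the basal transporter GLUT1, was 19.9, 30.6 and 22.2 in KO on chow and 40.1, 36.5 and 31.2 in WT on chow. On high fat the ratio was 31.3, 20.9 and 34.2 in KO mice and 44.0, 35.5 and 30.9 in WT mice. KO mice had 0.718 times the WT ratio over both diets (2-sided exact permutation p = 0.02 within diets, adjusted p = 0.06 over 12 tests). The groups did not overlap on chow and overlapped on high fat. Without the lymphocyte-rich libraries the log2 difference was -0.29 in place of -0.48 (adjusted exact permutation p = 0.4).

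Hk2, the hexokinase that phosphorylates glucose in muscle, was 53.2, 75.1 and 67.3 FPKM in KO on chow and 72.9, 45.6 and 70.4 in KO on high fat. In WT mice it was 71.4 to 75.9 FPKM on chow and 67.7 to 72.7 on high fat. The low values lay in single KO libraries, chow replicate 1 and high fat replicate 2, and the genotypes overlapped on both diets. KO minus WT was -0.20 on chow (SE 0.17, limma adjusted p = 0.51) and -0.19 on high fat (SE 0.17, limma adjusted p = 0.65), and without KO high fat replicate 2 the latter was 0.03. Its ratio to Hk1 averaged 15.4 ± 2.90 in WT on chow, 15.9 ± 1.58 in WT on high fat, 11.1 ± 3.17 in KO on chow and 13.2 ± 4.97 in KO on high fat (SD, n = 3).

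**Figure D3:**
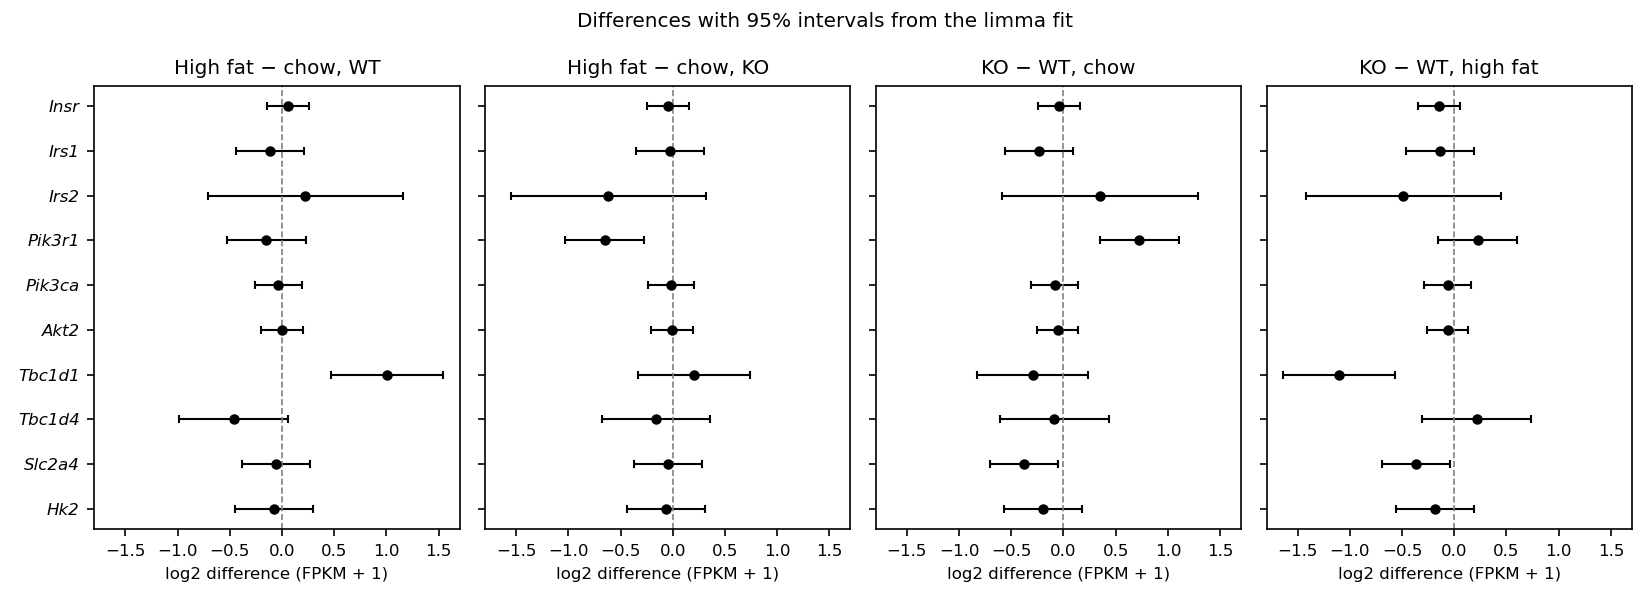
Difference in log2(FPKM + 1) (horizontal axes) for each gene in the 4 simple comparisons, with 95% intervals from limma that are not adjusted for the number of genes. Intervals clear of 0 are those of Tbc1d1 by diet in WT (0.47 to 1.54) and by genotype on high fat, Pik3r1 by diet in KO and by genotype on chow, and Slc2a4 by genotype on both diets.

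Counted over the 10 genes, 0 passed the limma adjusted p of 0.05 by diet in WT mice, where 0.1% of the 11945 genes tested did, and 1 had an unadjusted p under 0.05 (Tbc1d1, higher), against 8.12% of all. By diet in KO mice 0 passed, as in 0% of all genes, and 1 had an unadjusted p under 0.05 (Pik3r1, lower), against 11.3%. By genotype on chow 0 passed against 0.0586%, and 2 had an unadjusted p under 0.05 (Pik3r1 higher, Slc2a4 lower), against 16.7%. By genotype on high fat 0 passed against 0.109%, and 2 had an unadjusted p under 0.05 (Tbc1d1 and Slc2a4, both lower), against 16.2%. For the difference between diet responses 0 passed against 0%, and 1 had an unadjusted p under 0.05 (Tbc1d1), against 6.25%. In each of these comparisons the share of the 10 genes was near that of all genes. Groups that did not overlap were found for 1 of the 10 genes by diet in WT (Tbc1d1) against 13.1% of all, for 1 by diet in KO (Pik3r1) against 16.9%, for 1 by genotype on chow (Pik3r1) against 18.4%, and for 3 by genotype on high fat (Pik3r1, Tbc1d1 and Slc2a4) against 23.7%.

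Averaging over genotypes or diets gave the same 3 genes. By diet over both genotypes 0 of 10 passed the limma adjusted threshold against 0.0586% of all genes, and 2 had an unadjusted p under 0.05 against 13.9%, Tbc1d1 at 0.60 (SE 0.17, limma adjusted p = 0.20) and Pik3r1 at -0.40 (SE 0.12, limma adjusted p = 0.22). By genotype over both diets 0 passed against 0.862%, and 3 had an unadjusted p under 0.05 against 26.5%. These were Tbc1d1 at -0.70 (SE 0.17, limma adjusted p = 0.063), Pik3r1 at 0.47 (SE 0.12, limma adjusted p = 0.067) and Slc2a4 at -0.37 (SE 0.10, limma adjusted p = 0.076). Single libraries moved these across the threshold. Without WT chow replicate 2 Pik3r1 had a limma adjusted p of 0.045, without WT high fat replicate 3 Tbc1d1 had 0.041, and without KO chow replicate 2 Slc2a4 had 0.034, Tbc1d1 0.040 and Pik3r1 0.045. That last setting leaves only lymphocyte-rich libraries in KO chow. Without the lymphocyte-rich libraries KO chow is a single library. There the genotype difference was -0.55 for Tbc1d1 in place of -0.70, and -0.25 for Slc2a4 in place of -0.37. For Pik3r1 it lay between 0.46 and 0.52 over this and all other settings except single libraries left out. The median over the 10 genes was -0.08 by genotype and -0.06 by diet, beside -0.02 and 0.01 over all genes tested.

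The wider pathway was read from a list of 94 other genes by role, of which 92 were in the files and 88 were tested. None of the 88 passed a limma adjusted p of 0.05 in any comparison. At an unadjusted p under 0.05, by diet in WT mice 3 were higher and 5 lower, against 4.42% and 3.7% of all genes, and in KO mice 5 were higher and 6 lower, against 6.56% and 4.73%. By genotype on chow 6 were higher and 7 lower, against 6.73% and 9.93%, and on high fat 8 were higher and 2 lower, against 9.79% and 6.45%. For the difference between diet responses 2 were higher and 0 lower, against 3.55% and 2.70%. By diet over both genotypes 5 were higher and 7 lower, against 7.96% and 5.94%, and by genotype over both diets 9 were higher and 7 lower, against 13.1% and 13.4%.

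Among receptor adaptors, Sh2b2, an adaptor that binds the activated insulin receptor, was 7.16, 4.49 and 8.90 FPKM in KO on chow and 2.20, 4.61 and 3.18 in WT on chow. On high fat it was 3.38, 4.11 and 3.51 FPKM in KO and 0.679, 1.74 and 2.08 in WT mice. The genotypes overlapped on chow and did not on high fat, and over both diets KO minus WT was 0.90 (SE 0.19, limma adjusted p = 0.056). High fat minus chow over both genotypes was -0.76 (SE 0.19, limma adjusted p = 0.18). The summed adipocyte markers were 1712, 815 and 1729 FPKM in KO on chow, 112, 729 and 553 in WT on chow, 439, 348 and 506 in KO on high fat and 5.90, 108 and 385 in WT on high fat. Like Sh2b2, they were highest in KO chow replicates 1 and 3 and lowest in WT high fat replicate 1. Cfd alone among these markers stood higher on chow than on high fat in KO mice without overlap. Of these markers Adipoq, Plin1 and Cfd differed by 1.97, 2.02 and 2.06 by genotype over both diets (limma adjusted p = 0.14, 0.11 and 0.12). The part of fat tissue in the Sh2b2 level was not tested. Of the 16 brakes on the signal, phosphatases and inhibitory adaptors among them, Trib3, a pseudokinase that binds AKT, was 0.43 higher in KO on chow (SE 0.14, limma adjusted p = 0.28) at 1.43 to 1.77 FPKM against 0.644 to 1.17 in WT.

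Of 18 genes of AKT and its targets, 13 (72.2%) had a lower estimate in KO mice over both diets, against 55.6% of all genes tested. Of the 18, 5 (27.8%) were lower at an unadjusted p under 0.05, against 13.4% of all, and whether the list differs from other genes was not tested. The median of the 18 was -0.08, beside -0.02 over all genes tested. Of the 7 genes of the PI3K and PDK1 list, 6 had a higher estimate and 1 (14.3%) a lower. Their median was 0.08, and 1 (14.3%) was higher at an unadjusted p under 0.05, against 13.1% of all. Estimates were lower for 5 of 7 receptor and adaptor genes, 6 of 9 AMPK genes and 5 of 6 genes controlling GLUT4 transcription. They were lower for 10 of 18 GLUT4 traffic genes, 7 of 16 brakes and 2 of 7 transporters and hexokinases. Whether these lists differ from each other was not tested. One of the 5 AKT pathway genes was Mlst8, a subunit of both mTOR complexes, at -0.23 (SE 0.06, limma adjusted p = 0.073). Foxo1, a forkhead factor that AKT keeps out of the nucleus, was 10.2, 9.64 and 10.4 FPKM in KO on chow and 8.65, 5.51 and 6.35 in KO on high fat, a log2 difference of -0.52 (SE 0.13, limma adjusted p = 0.35) between groups that did not overlap. The 3 KO chow libraries were the highest of the 12 for Foxo1, as they were for Pik3r1. KO chow had the highest summed adipocyte markers, of which only Cfd stood above KO on high fat without overlap. KO chow replicates 1 and 3 were also lymphocyte-rich. The part of fat or lymphoid tissue in the Foxo1 level was not tested.

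Among 18 tested genes of GLUT4 vesicle traffic, Pak1, a kinase that acts with Rac1 on the actin cytoskeleton, was 17.6, 18.2 and 19.97 FPKM in WT on high fat against 32.5, 25.4 and 30.5 in WT on chow. The groups did not overlap, at a log2 difference of -0.63 (SE 0.12, limma adjusted p = 0.097). In KO mice Pak1 was 20.3, 27.3 and 20.5 FPKM on chow and 23.4, 25.3 and 25.6 on high fat, and the difference between diet responses was 0.76 (SE 0.18, unadjusted p = 0.0012, limma adjusted p = 0.43). KO minus WT of Pak1 on chow was -0.37 (SE 0.12, limma adjusted p = 0.28). Sort1, the sorting receptor sortilin of GLUT4 vesicles, was 12.2, 17.8 and 17.2 FPKM in WT on high fat against 20.6, 20.4 and 24.5 in WT on chow, a difference of -0.46 (SE 0.16, limma adjusted p = 0.38) between groups that did not overlap. Rab13, a small GTPase of GLUT4 exocytosis, was 7.91 to 9.42 FPKM in KO and 5.89 to 6.38 in WT mice on high fat, a difference of 0.42 (SE 0.10, limma adjusted p = 0.093). Its difference between diet responses was 0.38 (SE 0.14, limma adjusted p = 0.71). Stx4a, the target SNARE syntaxin 4, was 0.27 higher on high fat in KO mice (SE 0.09, limma adjusted p = 0.42).

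Among transporters and hexokinases, Hk3, a hexokinase abundant in myeloid cells, was 2.21, 3.46 and 2.06 FPKM in KO on high fat, above all other libraries, which lay between 0.650 and 1.56. By genotype over both diets Hk3 was 0.53 higher in KO mice (SE 0.11, limma adjusted p = 0.053), by genotype on high fat 0.66 (SE 0.16, limma adjusted p = 0.092), and by diet in KO mice 0.56 (SE 0.16, limma adjusted p = 0.36). The summed macrophage markers (Csf1r, Emr1, Cd68 and Marco) were 40.7 to 77.5 FPKM in KO on high fat against 8.27 to 23.7 in WT on high fat. They were 55.1, 32.4 and 54.4 FPKM in KO on chow, which overlaps KO on high fat, while Hk3 was 1.15 to 1.56 FPKM in KO on chow and did not overlap. Taken singly, Cd68 was 10.4 to 18.5 FPKM in KO on chow and 20.5 to 40.1 in KO on high fat. Emr1 was 3.32 to 4.49 and 5.37 to 8.35 FPKM, so neither of them overlapped. Csf1r and Marco overlapped, with Marco at 8.14 and 12.2 FPKM in KO chow replicates 1 and 3. The part of macrophages in the Hk3 level was not tested.

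**Figure D4:**
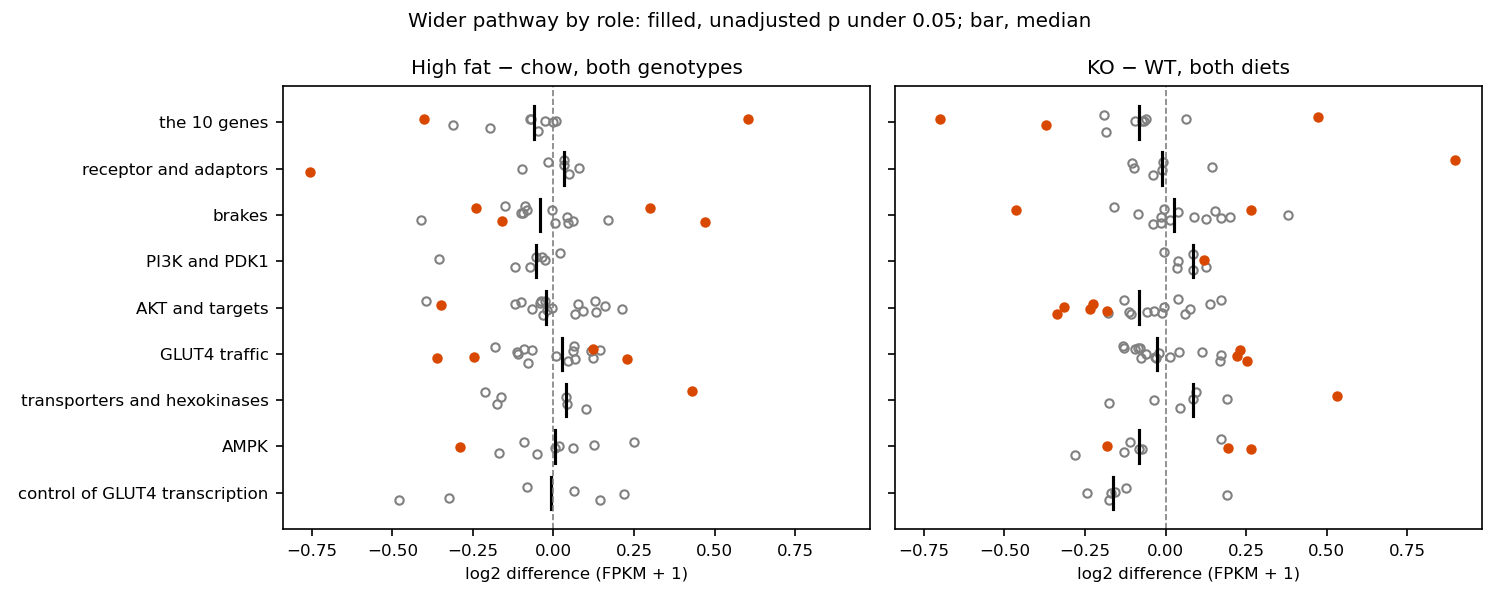
Difference in log2(FPKM + 1) (horizontal axes) of the 10 genes and of 88 other pathway genes by role, averaged over genotypes (left) or diets (right), 1 point per gene, with black bars at the medians. Filled points have an unadjusted p under 0.05, and none of the 88 passes the adjusted threshold.

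Side by side, the 10 genes divide in how they vary between libraries. Insr, Irs1, Pik3ca, Akt2, Tbc1d1, Slc2a4 and Hk2 each had 1 of their 3 lowest values in KO chow replicate 1, while Pik3r1 had its highest value of 17.6 FPKM there. In KO high fat replicate 2, Insr (7.04 FPKM), Irs2 (0.662), Slc2a4 (187) and Hk2 (45.6) had their lowest value of the 12. WT high fat replicate 1 held the highest Tbc1d1 and the lowest Tbc1d4.

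**Figure D5:**
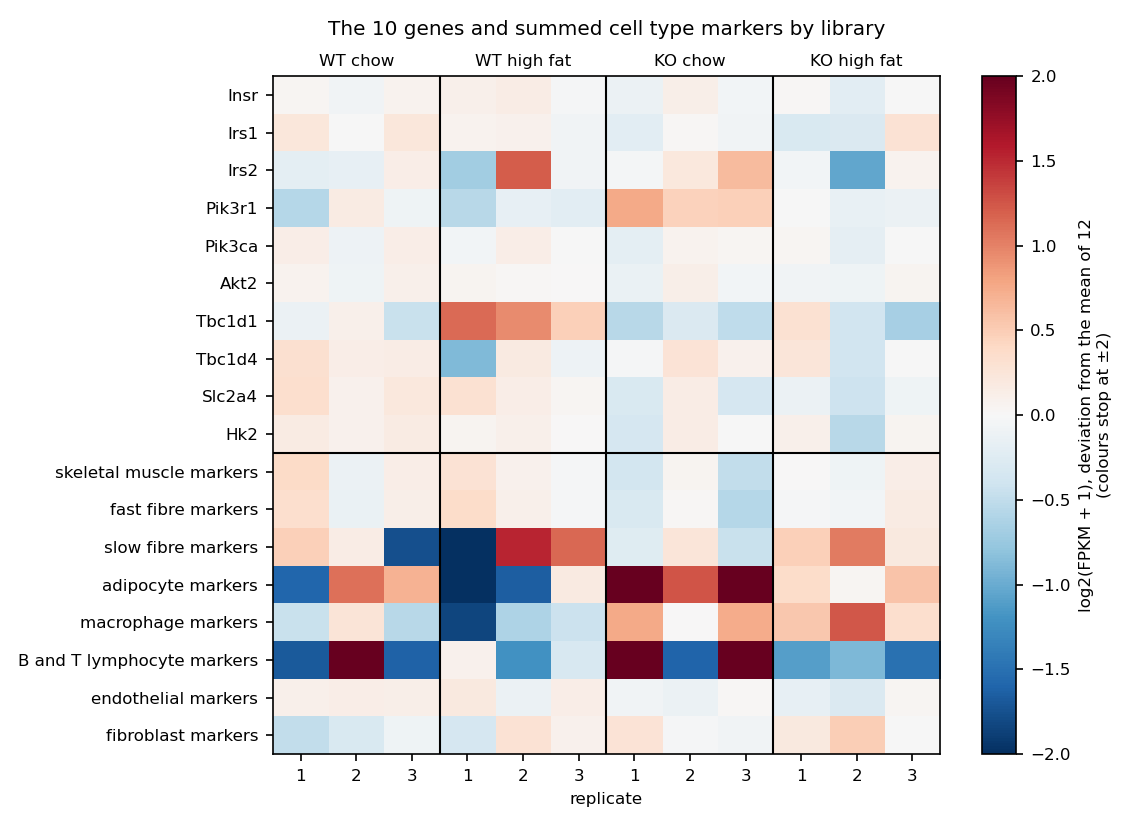
Deviation of log2(FPKM + 1) from the mean of the 12 libraries (colour, stopped at 2 either way) for the 10 genes and for summed cell type markers, by library (columns, 3 to a group), with Acta1 left out of the muscle sum. The lymphocyte markers stand out in WT chow replicate 2 and KO chow replicates 1 and 3.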

How the data were processed

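RNA of 12 hind limb muscle samples, 3 in each of 4 groups, was made into TruSeq libraries and sequenced by the authors on a HiSeq2000. The authors deposited FPKM-like values per row and sample, each row named by a gene symbol, without pooling replicates. No header names the unit, which was inferred to be FPKM from how the values step and sum. The submitters' processing notes name TopHat2 2.0.8b, Cuffdiff 2.1.1 and the build mm10, with no role given. Depth in reads is unknown, and no interval for counting error is given.

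Samples were grouped by title. Of 23179 rows, 256 repeat a symbol, and only the one of highest mean entered. Values were taken to log2(FPKM + 1), a scale that understates changes of low genes. The 11945 genes with at least 1 FPKM in at least 3 samples entered limma 3.58.1 (R 4.3.3), run with a variance trend, 4 group means and 8 residual degrees of freedom, and Benjamini-Hochberg adjustment. The script was tested on simulated data. The 7 comparisons were diet in each genotype, genotype on each diet, their interaction and both averages. The median-of-ratios size factors lay between 0.998 and 1.01, and no scaling moved the median of all genes by more than 0.03. One KO chow library had a total of 10657000 FPKM, and 484690 without its largest row. Ratios of 6 gene pairs and correlations were tested by permutation in Python 3.11.15 with SciPy 1.17.1.

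The 10 genes and the lists were chosen with earlier results of these data known. Named besides them were the genes of the ratios, the 3 other pathway genes with the lowest unadjusted p under 0.05 in each comparison, and the 3 genes closest to Insr, Slc2a4 and Hk2. After the values were seen, a pseudogene symbol first read as a list gene was dropped, and the setting without libraries over 10 FPKM of lymphocyte markers was added. Loci are from GENCODE M21 and promoter windows from RefSeq. Protein sequences were not used here. Some listed genes are not reported here, and the lists and sums were computed without them.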

Additional observations from a re-analysis of the deposited data

How the results depend on the processing

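Alternatives were a pseudocount of 0.1, no filter, size factors, quantile normalization, robust moderation, only the groups compared, the replicate block, each library left out, and 2 sets of libraries left out. Of 230 counts of called genes 223 stayed within 1.5 times the reported count, of 115 medians 113 stayed within the replicate SD, and of 1150 gene differences 1130 kept their side of the threshold and their direction, where a sign change of an uncalled value counted only if it moved by more than its SE. Over both diets by genotype, leaving out 1 library gave 0 to 3 of the 10 genes and 0 to 5 other pathway genes past the limma adjusted p of 0.05, and quantile normalization gave 1 other pathway gene. Leaving out 1 library moved the log2 difference of Tbc1d4 by genotype on high fat between -0.094 and 0.44, of Irs2 by diet in WT between -0.31 and 0.65 and by genotype on high fat between -0.91 and 0.045, of Hk2 by genotype on high fat between -0.31 and 0.027, and, by diet in KO, of Slc2a4 between -0.13 and 0.11, of Tbc1d1 between -0.074 and 0.41 and of Hk2 between -0.20 and 0.15. It moved the genotype log2 ratio of Tbc1d1 to Tbc1d4 between -0.98 and -0.58 and of Pik3r1 to Pik3ca between 0.47 and 0.74, the adjusted exact permutation p reaching 0.03 for each without WT chow replicate 3. Quantile normalization turned Akt2 to 0.055 by genotype on chow and 0.0060 by genotype over both diets. Without the libraries whose genotype label conflicts with their title, the diet difference in KO mice turned to 0.37 for Irs1, -0.24 for Tbc1d1 and 0.15 for Hk2, with a single KO library on high fat that is assumed to vary like the others. Without the lymphocyte-rich libraries, a setting chosen after seeing the data, the median of the 10 genes was -0.23 by diet in KO and -0.19 for the interaction, Insr turned to 0.053 by genotype on chow and -0.080 by diet over both genotypes, Slc2a4 turned to -0.24 for the interaction, and the diet log2 ratios turned to -0.16 for Hk2 to Hk1, -0.037 for Slc2a4 to Slc2a1 and -0.13 for Akt2 to Akt1. The causes were not tested.

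Same-numbered libraries correlated between -0.81 and 0.39 in their deviations from group means, over 0.1 in 2 of 12 pairs, so the numbers were not read as pairs. With the replicate block 0 of the 10 genes passed in each comparison. Every group holds each number once, so the block could change p-values but not the log2 differences. Tbc1d1 by diet in WT, at 1.01, had a limma adjusted p of 0.15 there.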

Other observations

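Levels of the 10 genes were correlated over the 12 libraries, in 45 pairs, with 100000 permutations a pair. Of these, 10 had an adjusted p of Pearson's r under 0.05. The share of such pairs over all tested genes is not given here, so the count is not read as a trait of these genes. The highest was Insr with Hk2, at r = 0.84 (permutation p = 0.00033, adjusted 0.012) and Spearman's rho = 0.73 (permutation p = 0.0090, adjusted 0.040). Without the 2 libraries farthest in Insr its r was 0.75, and for deviations from the group means 0.87. Insr with Slc2a4 gave r = 0.81 (permutation p = 0.0015, adjusted 0.017) and rho = 0.76 (permutation p = 0.0063, adjusted 0.039), with r = 0.76 without the 2 farthest libraries and 0.82 without the lymphocyte-rich ones. Slc2a4 with Hk2 gave r = 0.77 (permutation p = 0.00076, adjusted 0.012) and rho = 0.80 (permutation p = 0.0031, adjusted 0.034), with r = 0.74 without the 2 farthest. All values of a library share its scaling and its tissue makeup, whose part was not tested.

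The tested genes most like Insr over the 12 libraries, by Pearson's r of log2(FPKM + 1) and given as a description, were Rprd2 (0.95), Pfas (0.94) and Map4k5 (0.94). Those most like Slc2a4 were Nsmaf (0.97), Eif4enif1 (0.96) and Dennd4b (0.96). Those most like Hk2 were Nt5dc3 (0.97), Jhdm1d (0.95) and Huwe1 (0.95).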
